A study of Homo sapiens with 6 samples.

Results

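Circular RNAs (circRNAs) that were listed as the only ring of their host gene were examined in human forebrain neurons. A ring was included when its host name occurred in 1 row of the deposited circRNA table, when its ends lay 1000 to 50000 bases apart on the genome, and when the host was neither a numbered ZNF (zinc finger) gene nor a gene of the lncRNA table. This gave 1745 of 31559 circRNAs, and their hosts made up 23.9% of the 7292 hosts. The cells were made from H9, a human embryonic stem cell line, and were collected on day 26. The labels describe them both as forebrain neurons and as neuron progenitor cells. The 6 libraries hold cytoplasmic, nuclear and total-cell RNA, with 2 replicates of each. All libraries came from WT cells without treatment, so the fractions are the comparison the design offers. The series title poses the question of how adenosine-rich circRNAs leave the nucleus. Whether the replicates were separate cultures is not stated in the labels, and a p-value then covers just the spread of these libraries, possibly a technical one. How the cells were fractionated is not given in the sources at hand.

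A circRNA forms when the spliceosome joins the end of an exon to the start of the same or an upstream exon, which closes the RNA into a ring without a cap or a poly(A) tail. Rings have no free ends for exonucleases to attack and tend to be stable, and they are abundant in neural tissue. Most are made from coding exons and are found in the cytoplasm, so a ring has to be exported from the nucleus like an mRNA. A host gene can give many rings from different exon pairs, and the rings examined here are the single listed product of their host.

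The back-splice junction is the stretch of sequence that a ring has and its linear mRNA lacks, and the reads counted here must cross it. The junctions of the 4 only rings that were higher in the cytoplasm than in the nucleus are shown because they are the molecules behind that result. Capitals mark the first 25 bases of the ring, and the lower-case bases before them are its last 25. The sequences come from GENCODE v29 transcripts of the build GRCh38, with the exons between the ring's ends joined. The ring from VAMP3 spans chr1:7777160-7778169 on the + strand (exons 3 to 4 of 5), that from GOLPH3 chr5:32135572-32143880 on the - strand (exons 2 to 3 of 4), that from YTHDF2 chr1:28742403-28743986 on the + strand (exon 4 of 5) and that from PAX3 chr2:222220140-222232283 on the - strand (exons 5 to 7 of 9).
VAMP3 junction: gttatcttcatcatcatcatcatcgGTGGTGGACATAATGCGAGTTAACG
GOLPH3 junction: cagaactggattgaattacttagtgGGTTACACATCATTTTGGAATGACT
YTHDF2 junction: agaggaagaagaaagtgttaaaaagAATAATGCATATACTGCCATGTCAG
PAX3 junction: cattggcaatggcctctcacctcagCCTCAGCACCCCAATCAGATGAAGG

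Whole rings are short enough to be read at a glance, and their base composition is what the later comparison by A content rests on. The VAMP3 ring has 211 bases, of which 28.4% are A. The TSNAX ring, from chr1:231537213-231542611 on the + strand (exons 3 to 4 of 6), has 246 bases, of which 34.96% are A. A 120-base stretch of the TMED2 ring (chr12:123586760-123586879, + strand) is 39.2% A, and a 120-base stretch of the LMO1 ring (chr11:8226979-8227098, - strand) is 18.3% A. They were picked as the stretch with the most A in the TMED2 ring (38.9% A in all) and the one with the least in the LMO1 ring (20.6% A in all), each within 1 exon. Capitals mark runs of 3 or more A.
VAMP3 ring: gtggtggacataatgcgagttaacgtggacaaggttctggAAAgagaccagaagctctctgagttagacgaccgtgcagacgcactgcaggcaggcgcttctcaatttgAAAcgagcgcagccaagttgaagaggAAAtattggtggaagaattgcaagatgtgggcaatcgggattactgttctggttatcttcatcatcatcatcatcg
TSNAX ring: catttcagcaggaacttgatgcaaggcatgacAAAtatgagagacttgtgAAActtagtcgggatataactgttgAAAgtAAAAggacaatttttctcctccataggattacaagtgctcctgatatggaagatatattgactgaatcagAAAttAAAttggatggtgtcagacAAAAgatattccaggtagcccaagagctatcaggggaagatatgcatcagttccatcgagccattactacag
TMED2 stretch: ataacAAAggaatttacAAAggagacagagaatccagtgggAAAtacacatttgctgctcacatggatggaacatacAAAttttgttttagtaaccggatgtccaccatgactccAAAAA
LMO1 stretch: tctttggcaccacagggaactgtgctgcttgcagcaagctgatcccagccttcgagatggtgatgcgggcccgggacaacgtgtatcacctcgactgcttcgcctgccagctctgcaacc

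Levels are in FPB, which is taken here to mean back-splice reads scaled to library size, since no source at hand defines it. Each ring has 1 junction, so an FPB level does not grow with the length of the ring. Whole reads could be recovered from the FPB steps, which gave 46002 and 52244 circRNA reads from cytoplasmic RNA, 13338 and 15395 from nuclear RNA and 26114 and 33318 from total-cell RNA. A count of 0 reads allows, at 3 reads, up to 0.150 and 0.144 FPB for cytoplasmic, 0.247 and 0.203 FPB for nuclear and 0.369 and 0.296 FPB for total-cell RNA. These floors cover counting error only. In total RNA the neuronal marker STMN2 had 166 ± 17.7 FPKM and the progenitor markers VIM, NES and SOX2 had 299 ± 12.4, 52.5 ± 5.46 and 22.6 ± 1.30 FPKM (SD, n = 2). Of the pluripotency markers, POU5F1 and NANOG were at 0.00463 and 0.00516 FPKM, and LIN28A and DPPA4 at 5.26 and 1.50 FPKM, and the mesenchymal COL3A1 had 24.8 ± 3.67 FPKM. Fewer cells of a type and less RNA per cell cannot be told apart in such bulk samples.

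Most only rings were rare. Of the 1745, 1063 (60.9%) were seen by 1 read over all 6 libraries, 456 by 2 to 4 reads, 136 by 5 to 9 reads and 90 by 10 or more reads. Reads in 1 library alone supported 1280 of them, and 29 had reads in all 6 libraries. The only rings together had 1421 and 1728 reads in the cytoplasm, 567 and 621 in the nucleus and 873 and 1197 in total RNA. CDR1-AS, the neuronal ring known for its many binding sites for a microRNA, supplied 955 of their 6407 reads (14.9%).

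The only rings held 3.09% and 3.31% of all circRNA reads in cytoplasmic RNA, 4.25% and 4.03% in nuclear RNA and 3.34% and 3.59% in total-cell RNA. Their share was lower in both cytoplasmic libraries than in either nuclear one. The mean share was 3.198% ± 0.155 in the cytoplasm and 4.14% ± 0.154 in the nucleus (SD, n = 2 each), a difference of -0.944 percentage points with p = 0.333 by an exact two-sided permutation test, which is the smallest p that 2 against 2 libraries can give. Without CDR1-AS the means were 2.92% in the cytoplasm and 3.63% in the nucleus. Among rings of the same span range from hosts that meet the same host rule, the only rings held 4.22% ± 0.226 of the reads in the cytoplasm and 5.71% ± 0.280 in the nucleus.

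Detection was highest in the cytoplasmic libraries, which were also the deepest. At least 1 read was found for 31.8% and 38.7% of the only rings in the cytoplasm, 17.8% and 19.0% in the nucleus and 19.4% and 25.4% in total RNA. When each library was thinned to the sequencing depth of the shallowest one, the shares were 17.0% and 21.2% in the cytoplasm, 13.0% and 12.7% in the nucleus and 19.4% and 22.5% in total RNA. The thinned cytoplasmic libraries still lay above both nuclear ones (exact permutation test, two-sided p = 0.333, the smallest possible). Over all circRNAs of the table the thinned detection averaged 24.3% ± 0.681 in the cytoplasm, 13.8% ± 0.426 in the nucleus and 27.3% ± 0.222 in total RNA (SD, n = 2 each).

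**Figure D1:**
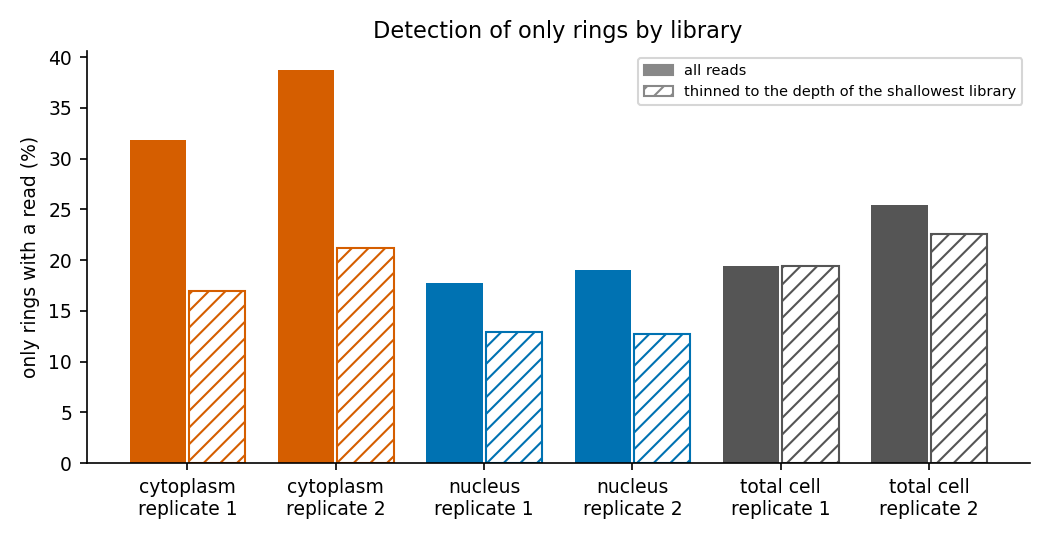
Percentage of the 1745 only rings with at least 1 read in each of the 6 libraries; filled bars use all reads, and hatched bars use reads thinned to the depth of the shallowest library. The cytoplasmic bars reach 31.8% and 38.7% with all reads and 17.0% and 21.2% after thinning, above the nuclear bars in both cases.

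Between cytoplasm and nucleus, the rings of PAX3, GOLPH3, YTHDF2 and VAMP3 were higher in the cytoplasm, and no only ring was called lower. Their hosts are a transcription factor of the dorsal neural tube and neural crest (PAX3), a Golgi protein that links membranes to the cytoskeleton (GOLPH3), a reader of methylated adenosines in mRNA (YTHDF2) and a vesicle SNARE of recycling endosomes (VAMP3). These 4 were among 19 only rings that passed the level filter, a mean of at least 0.369 FPB over the 6 libraries (3 reads in the shallowest library). The PAX3 ring passed it through its cytoplasmic levels, the group in which it was called higher. Over all 914 circRNAs tested, 30.9% were called higher in the cytoplasm and 0.328% lower (limma with Benjamini-Hochberg adjustment at 0.05). The median log2 fold change was 0.95 over the 19 only rings and 1.05 over all circRNAs tested, and 18 of the 19 were above 0. Fold changes are on the scale of log2(FPB + 0.123), which understates the change of low rings. In 13 of the 19, both cytoplasmic levels lay above both nuclear levels, and in none did they lie below, against 74.4% and 2.41% of all circRNAs tested. At an unadjusted p under 0.05, 9 of the 19 (47.4%) differed, against 49.5% of all circRNAs tested. edgeR on the recovered reads called 5 higher, and none lower, with 30.4% higher and 0.219% lower over all circRNAs tested.

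No only ring was called when either cytoplasmic library was left out, 2 were called without nuclear replicate 1, and 3 without nuclear replicate 2. Over all circRNAs tested, 1.64% and 1.53% were called higher without cytoplasmic replicates 1 and 2, and 27.7% and 28.4% without nuclear replicates 1 and 2. With libraries scaled so that mRNAs had the same median, the median of all circRNAs tested was 0.05 and that of the only rings -0.12, and no only ring was called, against 0 higher and 0.109% lower over all circRNAs tested. Under that scaling 9 of the 19 were above 0, and the signs of the rings of VAMP3, AKAP12, CDR1-AS, COA1, FBXO30, LMO1, NUFIP2, RP11-206L10.8 and ZDBF2 turned to negative. Relative to the median of all circRNAs, the rings of PAX3, GOLPH3 and YTHDF2 lay at 1.14, 0.47 and 0.37 on the log2 scale, and the VAMP3 ring at -0.27.

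**Figure D2:**
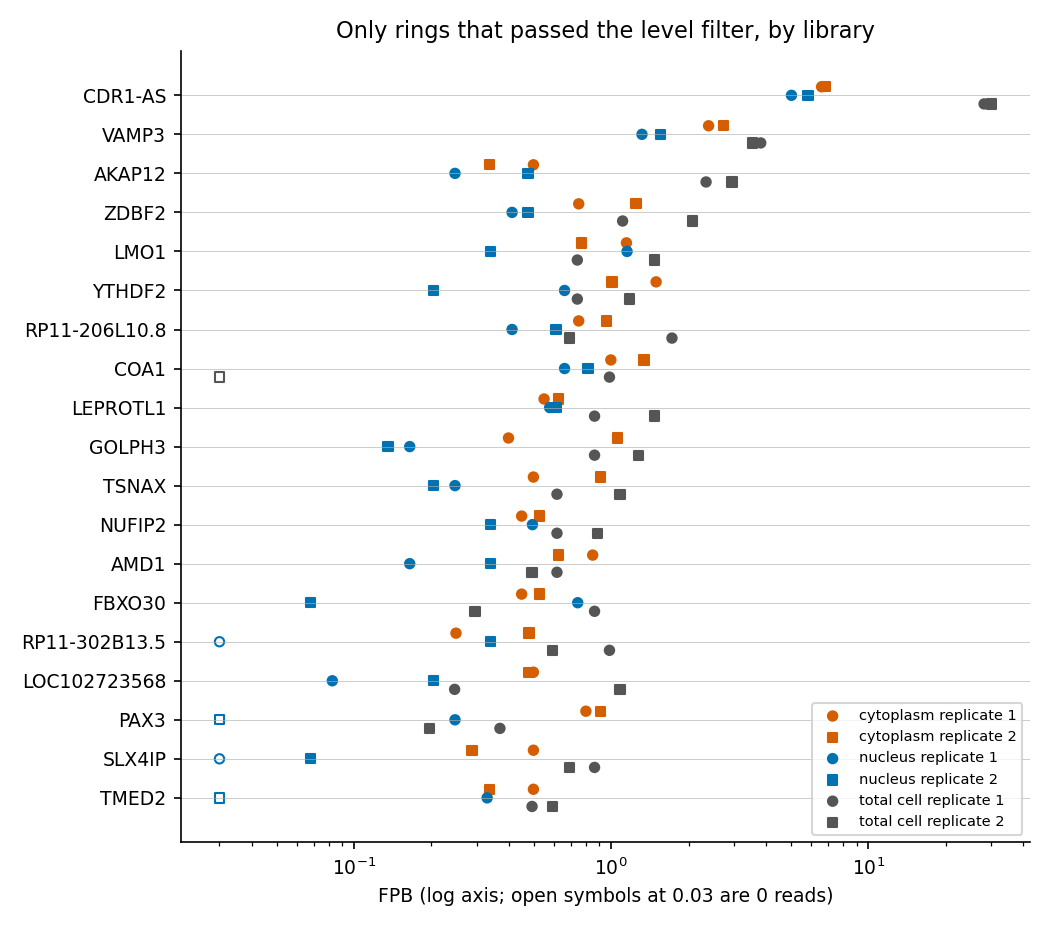
FPB of the 19 only rings that passed the level filter, on a log axis, in the cytoplasmic, nuclear and total-cell libraries; circles are replicate 1, squares replicate 2, and open symbols stand for 0 reads. CDR1-AS stands at the top with 28.2 and 30.05 FPB in total RNA, and the cytoplasmic levels of the PAX3 ring (0.798 and 0.912 FPB) lie to the right of all its nuclear and total-cell levels.

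The tested rings are described one by one in an order by the known role of the host, which is no test of a group. The VAMP3 ring had 2.39 and 2.74 FPB in cytoplasmic RNA, 1.32 and 1.56 FPB in nuclear RNA and 3.82 and 3.55 FPB in total-cell RNA. Its cytoplasmic levels lay above the nuclear and below the total-cell levels, with no overlap, and the cytoplasm-to-nucleus log2 fold change was 0.78 (SE 0.27, adjusted p = 0.0428). That direction turned under each scaling tried other than FPB as deposited, for instance to -0.42 with the mRNA factors. The GOLPH3 ring had 0.399 and 1.06 FPB in cytoplasmic RNA, 0.165 and 0.136 FPB in nuclear RNA and 0.862 and 1.28 FPB in total-cell RNA, a log2 fold change of 1.52 between cytoplasm and nucleus (SE 0.52, adjusted p = 0.0407). Each nuclear library held 2 reads of it, and the cytoplasmic libraries held 8 and 22, so both cytoplasmic levels were above the nuclear ones.

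LEPROTL1 codes for a small membrane protein of the endosome and Golgi system. Its ring had 0.549 and 0.624 FPB in cytoplasmic RNA, 0.577 and 0.610 FPB in nuclear RNA and 0.862 and 1.48 FPB in total-cell RNA. The cytoplasmic and nuclear levels overlapped, with a log2 difference of -0.02 (SE 0.43, adjusted p = 0.975), which is -1.07 relative to the median of all circRNAs. TMED2, a cargo receptor of the early secretory pathway, gave a ring with 0.499 and 0.336 FPB in cytoplasmic RNA, 0.330 and 0 FPB in nuclear RNA and 0.493 and 0.591 FPB in total-cell RNA. Nuclear replicate 2 had no read of it, and the fold change of 1.18 (SE 0.70) did not pass the test (adjusted p = 0.185). The ring listed under the clone name RP11-302B13.5 has both ends on exons 2 and 4 of ARF3, a small GTPase of the Golgi (chr12:48939655-48941188, - strand). It had 0.249 and 0.480 FPB in cytoplasmic RNA, 0 and 0.339 FPB in nuclear RNA and 0.985 and 0.591 FPB in total-cell RNA, and its cytoplasmic and nuclear levels overlapped.

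The YTHDF2 ring is 1 exon of 1584 bases inside the coding sequence, and it had 1.50 and 1.01 FPB in cytoplasmic RNA, 0.659 and 0.203 FPB in nuclear RNA and 0.739 and 1.18 FPB in total-cell RNA. Both cytoplasmic levels were above both nuclear ones, the log2 fold change was 1.42 (SE 0.49, adjusted p = 0.0432), and the total-cell levels overlapped the cytoplasmic ones and lay above both nuclear ones. TSNAX, a partner of translin in an endonuclease that helps to load the RNA-silencing complex, gave a ring with 0.499 and 0.912 FPB in cytoplasmic RNA, 0.247 and 0.203 FPB in nuclear RNA and 0.616 and 1.08 FPB in total-cell RNA. The cytoplasm was higher in both replicates, but the fold change of 1.21 (SE 0.49) missed the threshold (adjusted p = 0.0720). The ring of NUFIP2, which binds RNA and the fragile X protein, had 0.449 and 0.528 FPB in cytoplasmic RNA, 0.494 and 0.339 FPB in nuclear RNA and 0.616 and 0.887 FPB in total-cell RNA. Its cytoplasmic and nuclear levels overlapped, with a log2 difference of 0.19 (SE 0.46).

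Among hosts that act in development and signalling, the PAX3 ring had 0.798 and 0.912 FPB in cytoplasmic RNA, 0.247 and 0 FPB in nuclear RNA and 0.369 and 0.197 FPB in total-cell RNA. It was read 16 and 19 times in the cytoplasm, 3 and 0 times in the nucleus, and 3 and 2 times in total RNA, and its log2 fold change of 2.19 (SE 0.68, adjusted p = 0.0286) was the largest of the 19 with the pseudocount of 0.123 FPB. In edgeR with library sizes from the FPB steps, the SLX4IP ring had the larger value (3.13, against 2.83 for PAX3). A count of 0 in nuclear replicate 2 allows up to 0.203 FPB, which is below both cytoplasmic levels. None of the nuclear and total-cell levels of the PAX3 ring was above the level filter of 0.369 FPB. The ring was thus tested because of its cytoplasmic levels, and its call is no independent sign of a rise there. The ring of LMO1, a LIM-domain regulator of transcription, had 1.15 and 0.768 FPB in cytoplasmic RNA, 1.15 and 0.339 FPB in nuclear RNA and 0.739 and 1.48 FPB in total-cell RNA. Its nuclear replicates spanned the cytoplasmic levels, so the groups overlapped and the difference of 0.47 (SE 0.52) did not pass the test. AKAP12 anchors protein kinases at the membrane and the cytoskeleton. Its ring is a single exon of 5042 bases, and it had 0.499 and 0.336 FPB in cytoplasmic RNA, 0.247 and 0.475 FPB in nuclear RNA and 2.34 and 2.96 FPB in total-cell RNA. The cytoplasmic and nuclear levels overlapped, while all 4 lay far below both total-cell levels.

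The ring of AMD1, the decarboxylase that feeds polyamine synthesis, had 0.848 and 0.624 FPB in cytoplasmic RNA, 0.165 and 0.339 FPB in nuclear RNA and 0.616 and 0.493 FPB in total-cell RNA, and its cytoplasmic levels were above both nuclear ones, without passing the test (log2 fold change 1.22, SE 0.49, adjusted p = 0.0701). SLX4IP, a partner of the SLX4 nuclease scaffold, gave a ring with 10 and 6 reads in the cytoplasm and 0 and 1 reads in the nucleus. It had 0.499 and 0.288 FPB in cytoplasmic RNA, 0 and 0.0678 FPB in nuclear RNA and 0.862 and 0.690 FPB in total-cell RNA. The log2 fold change of 1.72 (SE 0.66) had an adjusted p of 0.0593 by limma and 0.0465 by edgeR. The ring of ZDBF2, an imprinted gene expressed from the paternal copy, had 0.748 and 1.25 FPB in cytoplasmic RNA, 0.412 and 0.475 FPB in nuclear RNA and 1.11 and 2.07 FPB in total-cell RNA, with cytoplasmic levels above the nuclear ones (0.95, SE 0.44, adjusted p = 0.0973).

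COA1 helps to assemble cytochrome c oxidase in mitochondria. Its ring had 0.997 and 1.34 FPB in cytoplasmic RNA, 0.659 and 0.814 FPB in nuclear RNA and 0.985 and 0 FPB in total-cell RNA. Total-cell replicate 2 had no read of it, against 8 in replicate 1, so 1 library sets its total-cell mean. FBXO30, the substrate-binding part of a ubiquitin ligase, gave a ring with 0.449 and 0.528 FPB in cytoplasmic RNA, 0.741 and 0.0678 FPB in nuclear RNA and 0.862 and 0.296 FPB in total-cell RNA. Its nuclear replicates, with 9 reads and 1 read, enclosed both cytoplasmic levels.

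The other 3 tested rings were not placed on an annotated protein-coding gene. CDR1-AS had 6.58 and 6.82 FPB in cytoplasmic RNA, 5.03 and 5.83 FPB in nuclear RNA and 28.2 and 30.05 FPB in total-cell RNA, the highest mean of all only rings. Its cytoplasmic levels were slightly above the nuclear ones (log2 0.30, SE 0.13, adjusted p = 0.0855), which is -0.75 relative to the median of all circRNAs. The sign turned with the scaling: with libraries set to the same circRNA sum it was called lower in the cytoplasm (-0.84), as it was by DESeq2 (-0.81), while the mRNA factors gave -0.95 without a call. RP11-206L10.8 is the clone name of a ring on the transcribed pseudogene AL669831.4 in GENCODE v29 (chr1:805799-810170, - strand), and it had 0.748 and 0.960 FPB in cytoplasmic RNA, 0.412 and 0.610 FPB in nuclear RNA and 1.72 and 0.690 FPB in total-cell RNA. The ring listed under LOC102723568 had 0.499 and 0.480 FPB in cytoplasmic RNA, 0.0824 and 0.203 FPB in nuclear RNA and 0.246 and 1.08 FPB in total-cell RNA. For both, the cytoplasmic levels lay above the nuclear ones, and neither passed the test (0.63, SE 0.47, and 1.24, SE 0.66).

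The linear mRNAs of the same hosts stand beside each ring here, but the mRNA table is in FPKM and was scaled separately, so values are set side by side and not tested against each other. Of the 19 hosts, 14 had an mRNA that passed its own filter (a mean of at least 1 FPKM). In the cytoplasm 12 of these mRNAs were higher than in the nucleus and 1 was lower, and over all 9801 mRNAs tested 89.8% were higher and 1.3% lower. Their median log2 fold change was 1.14, and that of all mRNAs tested was 0.82. The ring's fold change was below its host's in 6 of the 14.

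LEPROTL1, COA1 and TMED2 had the widest gaps on that side. The LEPROTL1 mRNA had 8.80 ± 0.199 FPKM in cytoplasmic RNA and 2.47 ± 0.437 FPKM in nuclear RNA (log2 1.50, SE 0.12), while its ring was at -0.02. The COA1 mRNA was at 1.74 (SE 0.12) and its ring at 0.58 (SE 0.75), and the TMED2 mRNA at 2.07 (SE 0.13) and its ring at 1.18 (SE 0.70). On the other side, the ZDBF2 mRNA had 0.847 ± 0.102 FPKM in cytoplasmic RNA and 1.03 ± 0.183 FPKM in nuclear RNA (-0.13, SE 0.11), and its ring was at 0.95 (SE 0.44). The AKAP12 mRNA was the 1 that was lower in the cytoplasm, with 4.61 ± 0.469 FPKM there and 7.56 ± 0.862 FPKM in the nucleus (SD, n = 2 each; -0.61, SE 0.13, adjusted p = 2.2e-06).

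**Figure D3:**
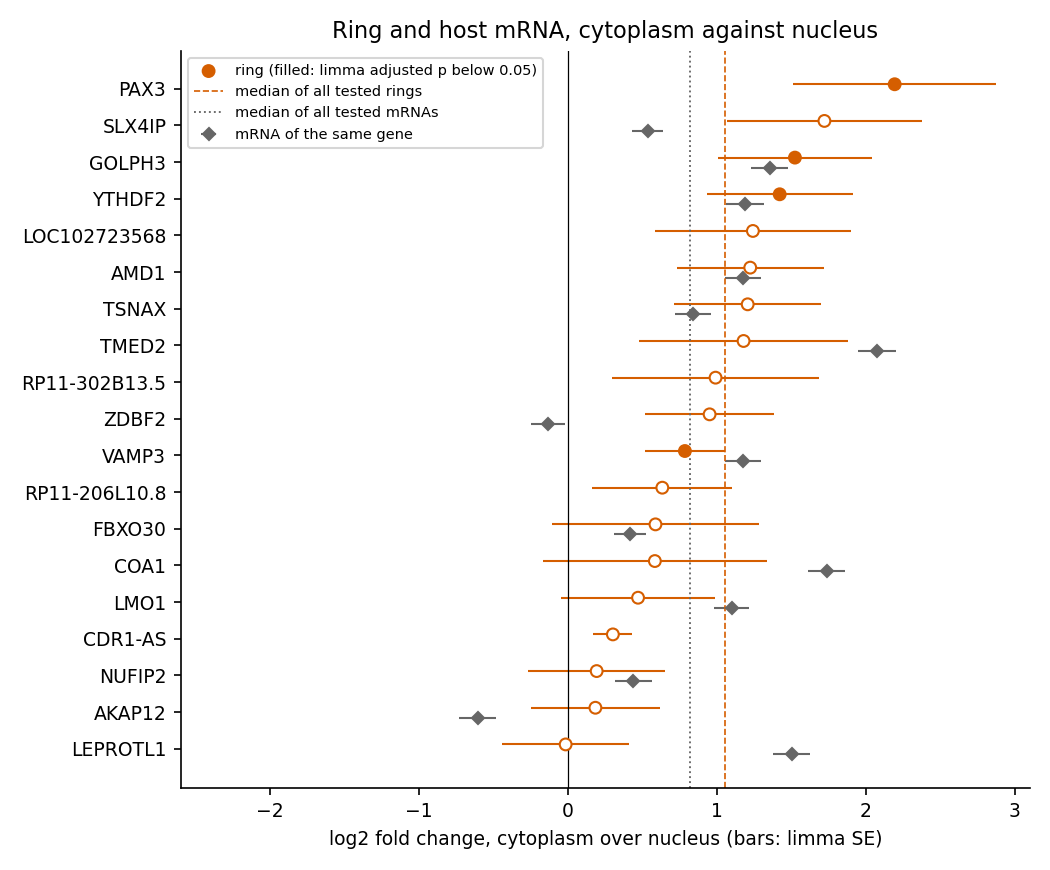
Log2 fold change between cytoplasm and nucleus of each of the 19 only rings (circles) and of the mRNA of the same gene where it was tested (diamonds), with limma standard errors; the dashed and dotted lines are the medians of all tested circRNAs (1.05) and mRNAs (0.82). The 4 filled circles passed the test, and the LEPROTL1 ring (-0.02) lies far to the left of its mRNA (1.50).

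Against total RNA, the rings of AKAP12 and CDR1-AS were lower in the cytoplasm, and no only ring was higher. Over all circRNAs tested, 4.27% were lower and 0.109% higher, and edgeR called the same 2 only rings lower, with 6.46% lower over all circRNAs tested. The AKAP12 ring averaged 0.417 ± 0.115 FPB in the cytoplasm and 2.65 ± 0.435 FPB in total RNA (log2 -2.37, SE 0.43, adjusted p = 0.00643). CDR1-AS averaged 6.70 ± 0.165 FPB in the cytoplasm and 29.1 ± 1.30 FPB in total RNA (SD, n = 2 each; log2 -2.10, SE 0.13, adjusted p = 4.8e-07). Both directions held under every setting tried. Both calls were lost by limma without the trend (adjusted p = 0.0515 each). The AKAP12 call was also lost without a filter, with one circRNA sum, and when any 1 of the 4 libraries compared was left out. Cytoplasmic levels lay below both total-cell levels in 7 of the 19 rings and above both in 3, against 44.5% and 9.08% of all circRNAs tested. The 3 above were the rings of PAX3, AMD1 and COA1, none of them called. Without total-cell replicate 1, which leaves the library with no read of it, the COA1 ring was called higher in the cytoplasm and in the nucleus than in total RNA.

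Nuclear levels were lower than in total RNA for 8 only rings, from CDR1-AS, VAMP3, AKAP12, ZDBF2, GOLPH3, TSNAX, RP11-302B13.5 and SLX4IP, and higher for none. Over all circRNAs tested, 62.4% were lower and 0.109% higher, while edgeR called 8 only rings lower, with LOC102723568 in place of RP11-302B13.5, and 56.3% of all circRNAs tested. CDR1-AS averaged 5.43 ± 0.571 FPB in the nucleus against 29.1 ± 1.30 FPB in total RNA (-2.40, SE 0.13), and the AKAP12 ring 0.361 ± 0.161 FPB in the nucleus against 2.65 ± 0.435 FPB in total RNA (SD, n = 2 each; -2.55, SE 0.43). The SLX4IP ring was at -2.54 (SE 0.66, adjusted p = 0.00633) and the GOLPH3 ring at -2.11 (SE 0.52, adjusted p = 0.00511). The other 4 lay between -1.90 and -1.29. Both nuclear levels lay below both total-cell levels in 15 of the 19 rings and above them in 0, against 80.2% and 0.875% of all circRNAs tested. The 3 comparisons share libraries and are not independent. With libraries scaled by the mRNA factors or to the same circRNA sum, CDR1-AS alone of the only rings was called lower in the nucleus than in total RNA (1.64% and 1.75% of all circRNAs tested), and the VAMP3 ring had a positive sign (0.10 and 0.23). For AKAP12 the mRNA also had its highest level in total RNA, 19.2 ± 1.52 FPKM.

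Only rings were then set beside rings of hosts with several rings that meet the same span and host rules, 5817 rings of hosts with 2 to 4, 6947 of hosts with 5 to 9, and 10199 of hosts with 10 or more. The ratio of summed FPB between cytoplasm and nucleus was 1.73 for only rings, 2.09 for 2 to 4 rings per host, 2.39 for 5 to 9 and 2.51 for 10 or more. Over the 4 pairs of a cytoplasmic with a nuclear library, it ran from 1.52 to 1.97 for only rings and from 2.35 to 2.69 for hosts of 10 or more. Divided by the ratio of the last class in the same libraries, which removes any scaling of a library, the ratio of only rings was 0.689 and ran from 0.645 to 0.733. It was 0.716 without CDR1-AS. These are descriptions of the classes, and no test was made between them.

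The mRNAs of the hosts ran the other way. Their median log2 fold change between cytoplasm and nucleus was 0.90 for hosts of only rings, 0.74 for 2 to 4 rings, 0.60 for 5 to 9 and 0.44 for 10 or more. The medians cover hosts whose mRNA passed its filter, 1016 of 1745, 1784 of 2517, 1037 of 1288 and 690 of 792. A median over such hosts is another measure than a ratio of summed FPB over all rings of a class. Hosts of only rings also had fewer exons and were shorter. The median number of exons was 11, 13, 17 and 24 over the 4 classes, and the median gene length 42.5, 62.3, 100.3 and 151.2 kb. Host mRNA in total RNA had a median of 2.84, 3.63, 4.20 and 5.53 FPKM.

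**Figure D4:**
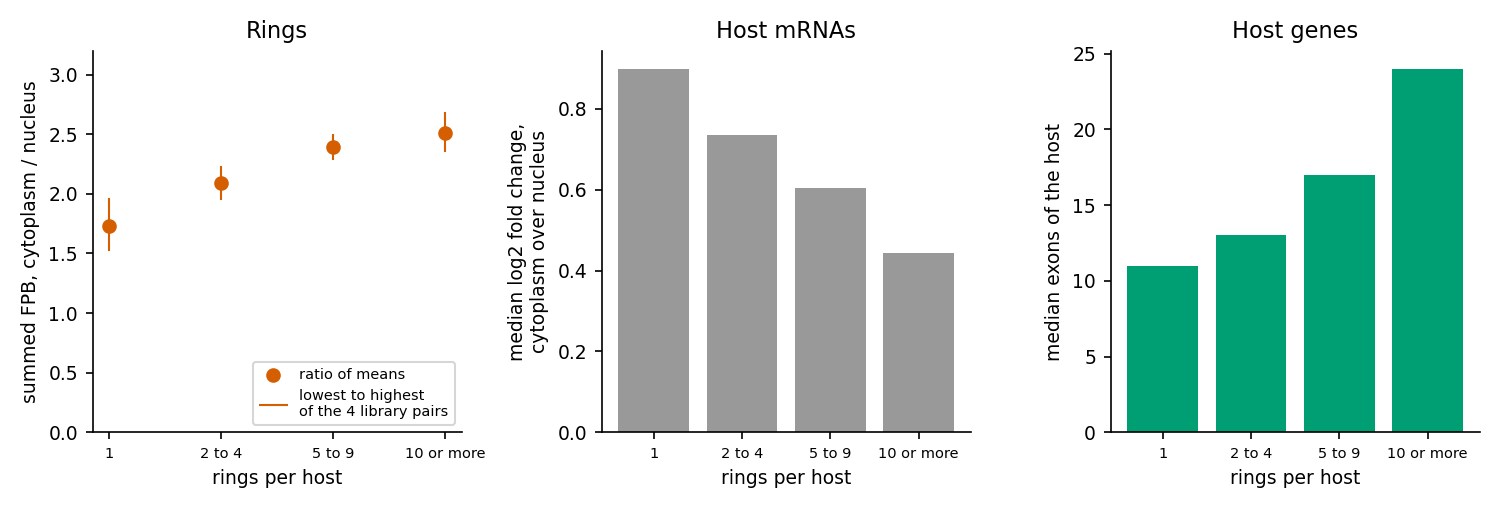
Classes of hosts by their number of listed rings: cytoplasm-to-nucleus ratio of summed FPB (left, points are ratios of means, lines run over the 4 library pairs), median log2 fold change of the host mRNAs that passed their filter (middle) and median exon number of the host (right). The ring ratio is 1.73 at 1 ring and 2.51 at 10 or more, while the host mRNA median is 0.90 at 1 ring and 0.44 at 10 or more.

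Rings were then compared at like read numbers. Only rings with 1 read had a cytoplasm-to-nucleus ratio of 1.32, and those of hosts with 10 or more rings 1.80. For only rings against hosts of 10 or more, the ratios at 2 to 4 reads were 1.53 and 2.39, at 5 to 9 reads 2.38 and 2.99, at 10 to 29 reads 2.09 and 2.95, and at 30 or more reads 1.69 and 2.45. The top class held 20 only rings, and without CDR1-AS its ratio was 2.03. By these ratios of means only rings were the lower of the pair in the 5 read classes. Hosts of 2 to 4 rings had ratios of 1.61, 2.07, 2.30, 2.32 and 2.09 in the same order of read classes. Only rings were thus above this nearest class at 5 to 9 reads, and close to it at 30 or more reads without CDR1-AS. Over the 4 library pairs the ranges did not overlap at 1 read (1.14 to 1.51 for only rings, 1.69 to 1.93 for hosts of 10 or more), at 2 to 4 reads (1.40 to 1.68 and 2.19 to 2.60) and at 30 or more reads (1.61 to 1.78 and 2.29 to 2.61). They overlapped at 5 to 9 reads, 1.72 to 3.33 for only rings and 2.74 to 3.26 for hosts of 10 or more, where only rings had the higher ratio of cytoplasmic replicate 2 to nuclear replicate 2, and at 10 to 29 reads, 1.60 to 2.85 and 2.72 to 3.18. They were also the class most often seen by a single read, 60.9% against 52.7%, 49.9% and 47.2% in the other classes, and the one least often past the level filter, 1.09% against 2.25%, 2.72% and 3.41%.

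Among only rings the cytoplasm-to-nucleus ratio was higher in the classes with more A. The ratio of summed FPB between cytoplasm and nucleus was 1.37 for the 521 only rings under 25% A, 1.99 for 534 at 25 to 30%, 2.17 for 423 at 30 to 35%, and 2.39 for 155 at 35% or more. Over the 4 library pairs these ran from 1.23 to 1.52, from 1.59 to 2.53, from 1.74 to 2.69 and from 2.18 to 2.61, so the lowest class did not overlap the others and the 3 upper classes overlapped each other. Without the most-read ring of each class the ratios were 1.37, 2.02, 2.17 and 2.56, and with rings inside the coding region alone they had the same order, with 1.38 in the lowest and 2.61 in the highest. The top class rested on 71 nuclear reads. Median GC content moved with A content, at 57.9%, 48.3%, 42.2% and 38.8%, and its part in the result was not tested.

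Hosts of 10 or more rings showed ratios of 1.89, 2.43, 2.66 and 3.01 in the same 4 classes of A content. In each class and in all 4 library pairs only rings were lower, at 0.721, 0.820, 0.816 and 0.794 of that class's ratio. A lower ratio was not particular to only rings. Hosts of 2 to 4 rings lay at 0.858, 0.904, 0.881 and 0.845 of the ratio for hosts of 10 or more. Over the library pairs, the undivided ratios of only rings and of hosts of 2 to 4 rings overlapped in each class of A content. Divided by the ratio for hosts of 10 or more in the same libraries, they did not overlap under 25% A. There they ran from 0.697 to 0.747 for only rings and from 0.842 to 0.873 for hosts of 2 to 4 rings. In the classes with more A the divided ratios overlapped. Only rings also held less A, with a median of 27.8% against 28.9%, 30% and 30.5% for 2 to 4, 5 to 9 and 10 or more rings per host. Among the 17 tested rings with a reconstructed sequence, the most A was found in the rings of RP11-206L10.8 (41.3%), TMED2 (38.9%), TSNAX (34.96%), ZDBF2 (33.5%) and SLX4IP (33.2%), and the least in those of LMO1 (20.6%), LEPROTL1 (23.2%), COA1 (23.5%), PAX3 (25.6%) and the ARF3 locus (26.8%). Fold change did not follow the order of A content among these few rings, with PAX3 at 2.19, SLX4IP at 1.72 and RP11-206L10.8 at 0.63.

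**Figure D5:**
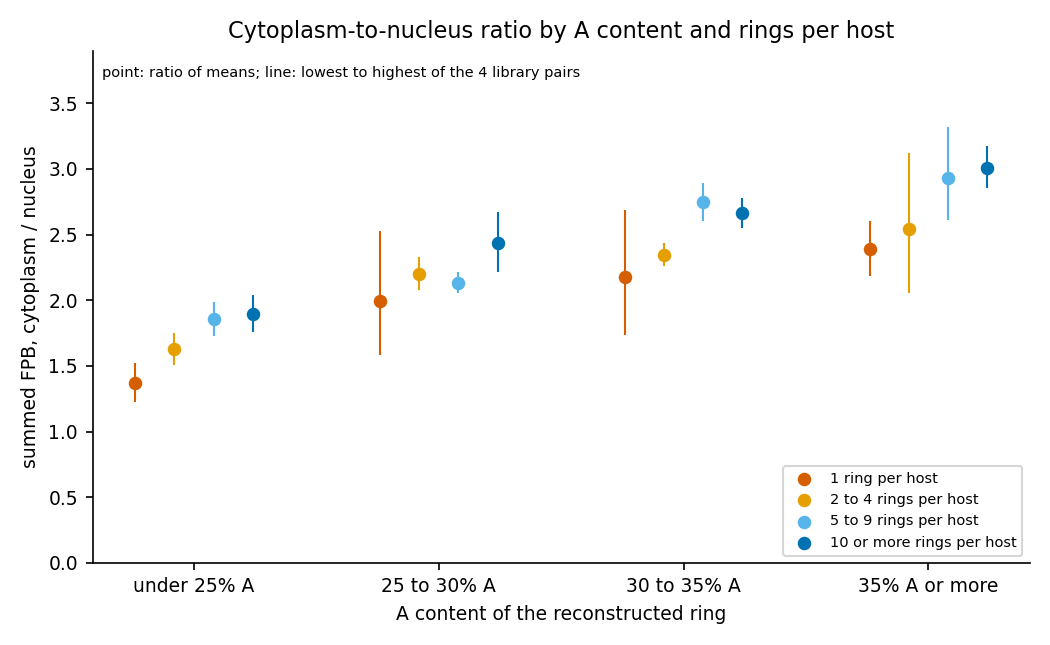
Cytoplasm-to-nucleus ratio of summed FPB in 4 classes of A content, for rings of hosts with 1, 2 to 4, 5 to 9 and 10 or more listed rings; points are ratios of means and lines run from the lowest to the highest of the 4 library pairs. Only rings have a ratio of 1.37 under 25% A and 2.39 at 35% A or more, and they lie below the rings of hosts with 10 or more in every class.

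In structure most only rings were short exonic rings, and their position along the gene was described by the rank of the first exon. Both ends fell on exon ends of 1 annotated transcript for 1633 (93.6%), and 1527 of these were on protein-coding genes. The median reconstructed length was 442 bases, against 500, 545 and 646 in the other classes, and the rings ranged from 108 to 5164 bases. Rings of 2 exons (529) and 3 exons (374) were the most frequent, and 45 were a single exon, among the tested ones those of AKAP12, YTHDF2, NUFIP2 and FBXO30. The coding region held 1195 (73.2%) entirely. Exon 2 was the first exon in 42.0% of only rings, against 32.3%, 23.2% and 13.6% in the other classes and 31.6% for the most-read ring of each host with several. Hosts of only rings also had fewer exons (median 11, against 13, 17 and 24), and the part of exon number in these shares was not tested. Their A content ran from 12.4% to 47.6%, with quartiles at 23.7% and 31.7%.

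The hosts were then looked up in 8 lists of 40 to 67 genes each. The lists are incomplete, so the shares describe the listed genes and not whole gene categories. Of 440 listed genes that hosted a ring, 32 (7.27%) were hosts of an only ring, against 23.9% of all hosts. The listed hosts had a median of 7 rings, and all hosts 2. Genes for mitochondrial proteins came closest, with 11 of 49 (22.4%), among them HADHA of fatty acid oxidation (6 reads) and TIMM44 of protein import (4 reads). Membrane traffic had 4 of 60, with TMED2 (31 reads) and RAB1A (2 reads), and neuronal adhesion and synapse 4 of 63, with the microtubule protein MAP1B (7 reads) and the kinase CAMK2D (4 reads).

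Fewer only rings came from the other lists. Ubiquitin enzymes had 3 of 49, with UBE2E2 (6 reads) and CYLD (2 reads), and DNA replication and repair 3 of 60, with NBN (4 reads) and ERCC3 (1 read). Splicing and RNA-binding factors had 3 of 61, with CPEB4 (2 reads) and PCBP2 (1 read), and centrosome and cilium genes 2 of 40, with WDR35 and BBS4 (1 read each). Chromatin regulators, with 2 of 58 (3.45%), had the lowest share, from HDAC2 (2 reads) and NSD2 (1 read). TMED2 was the only listed host whose ring was tested. Other tested hosts with like roles, such as VAMP3, GOLPH3, YTHDF2, NUFIP2, COA1 and FBXO30, were not in the lists.

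Many only rings were seen in 1 fraction. Reads in the cytoplasm alone supported 674, in the nucleus alone 296 and in total RNA alone 369, and these include the 1063 with a single read. All 3 fractions had reads of 137. Over all circRNAs the shares were 35.7%, 11.9% and 20.6%, against 38.6%, 17.0% and 21.1% of the only rings. Reads in both cytoplasmic libraries and in neither nuclear one were found for 73 (4.18%), and the reverse for 9 (0.516%), against 7.24% and 0.516% of all circRNAs. The cytoplasmic libraries were the deeper ones, so these counts do not compare the fractions. The ring of DPP10, a potassium channel subunit of neurons, had 5 and 5 reads in the cytoplasm, 0 and 0 in the nucleus and 3 and 5 in total RNA. That of NAPB, which recycles SNARE complexes at the synapse, had 4 and 6 in the cytoplasm and none elsewhere, and that of PEX3, needed to build peroxisomes, had 6 and 3 in the cytoplasm. In the other direction the ring of SF3B2, a splicing factor, had 0 and 0 reads in the cytoplasm, 3 and 2 in the nucleus and none in total RNA. At this depth 0 reads in the nucleus allow up to 0.247 and 0.203 FPB, close to the 0.249 and 0.240 FPB of DPP10 in the cytoplasm. The rings of DPP10, NAPB, PEX3 and SF3B2 were chosen after their values were seen.

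Being an only ring depends on the names in the table and on the depth. Of the 1745, 30 overlapped a ring listed under another host name and 19 of these shared a junction site with it, such as NSD2, whose other rings are listed under WHSC1. In all, 27 had an annotated gene with a ring under another name, and none of the 19 tested rings was found among them. CDR1-AS and LOC102723568 were not placed on an annotated gene, so for these rings the names could not be checked. At the lower span limit the nearest rings inside came from POLR2E (1000 bases, 7 reads) and SPIN3 (1002 bases, 2 reads), and the nearest outside from UNC45A (999 bases, 3 reads) and C11orf63 (996 bases, 2 reads). At the upper limit those inside came from LOC105374224 (49684 bases, 1 read) and SH3PXD2A (49534 bases, 1 read), and those outside from RP11-783N5.1 (50275 bases, 1 read) and LEKR1 (50749 bases, 1 read).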

How the data were processed

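Ribosomal RNA was depleted from cytoplasmic, nuclear and total-cell RNA, and the stranded libraries were run on a NovaSeq, per the labels' protocols. HISAT2 2.1.0, Bowtie, featureCounts 2.0.1, SAMtools 1.9, Trimmomatic 0.39 and the builds GRCh38 and hg38 appear in the submitters' processing notes. Their roles, and the caller of back-splice junctions, are not given in the sources at hand. The authors deposited circRNA levels as a signal in FPB and gene levels in FPKM, per the file headers.

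Whole read counts were recovered from the deposited FPB signal (100% of values within 0.05 reads). Fractions were compared in one model over the 6 libraries by limma 3.58.1 in R 4.3.3 (trend on) on log2(FPB + 0.123), for circRNAs with a mean of at least 0.369 FPB, and on log2(FPKM + 1) for mRNAs, both adjusted by Benjamini-Hochberg at 0.05. edgeR 4.0.16 (quasi-likelihood) and DESeq2 1.42.0 on the recovered counts were alternatives, as were other pseudocounts, filters, scalings, a replicate block and each library left out. The fits were tested on simulated data. Circular sequences were rebuilt from GENCODE 29 transcripts with all exons between the ends kept, which the reads do not show. Starts are counted from 1. CDR1-AS and LOC102723568 have no rebuilt sequence.

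The rings and the gene lists were chosen with earlier results of these data known. Named rings are the tested ones with the highest mean, the called ones, those with the most and least A, 2 per gene list and those at the span limits, and the remaining tested rings were named in addition.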

Additional observations from a re-analysis of the deposited data

How the results depend on the processing

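With FPB as deposited, 4 only rings were called between cytoplasm and nucleus, 2 between cytoplasm and total RNA and 8 between nucleus and total RNA. The replicate number as a block gave the same 4, 2 and 8 counts, with 33.0% higher, 5.03% lower and 61.5% lower over all circRNAs. Same-numbered libraries did not deviate together (r = -0.05 for cytoplasm and nucleus, -0.04 and 0.08 for the pairs with total RNA). Counting noise at low read numbers can hide a link, so these values cannot show whether the numbers pair the libraries. The cytoplasm and nucleus count was 1 (lower) by DESeq2 and with one circRNA sum, 0 by edgeR with TMM, without a filter and with mRNA factors (over all circRNAs, 0% were higher in the 4 fits with another scaling, and 0.985%, 0.547%, 0.328% and 0.109% lower by DESeq2, one circRNA sum, TMM and mRNA factors), 2 without the trend and with the stricter filter, 1 with the smaller pseudocount, and 0 to 3 with a library left out. The shares of all circRNAs called higher in the cytoplasm were 17.0% without the trend, 24.5% with the smaller pseudocount and 0.0380% without a filter. With the stricter filter 57.3% were called higher, against 2 of the 9 only rings tested. The cytoplasm and total count was 1 without a filter and with one circRNA sum, 0 without the trend, and changed for most libraries left out. Over all circRNAs, 0.0285%, 0.656% and 0.547% were lower without a filter, with one circRNA sum and without the trend. The nucleus and total count was 1 by DESeq2, edgeR with TMM, without a filter, with mRNA factors and with one circRNA sum, 4 with the stricter filter, and 5 to 10 with a library left out, of which 1 was higher (COA1) without total replicate 1. The shares of all circRNAs called lower in the nucleus were 1.86% by DESeq2, 1.97% by edgeR with TMM and 0.139% without a filter. They were 1.64% with mRNA factors and 1.75% with one circRNA sum. With the stricter filter 80.1% were called lower, against 4 of the 9 only rings tested. The median of the only rings between cytoplasm and nucleus, 0.95, was -0.10 by DESeq2, -0.11 by edgeR with TMM, 0.24 without a filter, 0.51 and 1.08 with the larger and the smaller pseudocount, -0.12 with mRNA factors, -0.028 with one circRNA sum, 0.58 with the stricter filter and 0.69 to 0.96 with a library left out. The lower share of circRNA reads in the cytoplasm (-0.944 points) ran from -1.05 to -0.835 and the detection gap (16.8 points) from 13.4 to 20.3 with a library left out.

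Signs that turned between cytoplasm and nucleus are given in the order mRNA factors, one circRNA sum, edgeR with TMM, DESeq2: AKAP12 -0.80, -0.72, -0.90 and -0.92, CDR1-AS -0.95, -0.84, -0.79 and -0.81, COA1 -0.55, -0.45, -0.43 and -0.45, FBXO30 -0.32, -0.21, -0.71 and -0.77, LMO1 -0.64, -0.53, -0.66 and -0.69, NUFIP2 -0.84, -0.75, -0.83 and -0.86, RP11-206L10.8 -0.45, -0.36, -0.37 and -0.38, and VAMP3 -0.42, -0.31, -0.27 and -0.28. ZDBF2 turned with the first pair (-0.12 and -0.028) and RP11-302B13.5 with the second (-0.11 and -0.10). VAMP3 between nucleus and total RNA was 0.10, 0.23, 0.20 and 0.19. With a library left out, the value crossed 0 for AKAP12 (-0.16 to 0.53), FBXO30 (-0.50 to 1.68), LMO1 (-0.26 to 1.20), NUFIP2 (-0.017 to 0.40) and LEPROTL1 (-0.093 to 0.060). Among the values of single rings under alternatives, 47 changed sign, 88 lost a call, 5 gained one and 310 did none of these. The edgeR fit with library sizes from the FPB steps was chosen after seeing the data. The cause of these changes was not tested. Depth is a further limit: 1726 of the 1745 only rings were too rare to test.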
